A study of Mus musculus with 14 samples.

Results

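The genes described here are 9 markers of the B lineage, Cd79a, Cd79b, Ms4a1, Cd22, Pou2af1, Jchain, Mzb1, Derl3 and Tnfrsf17, in RNA-seq libraries of ovary and uterus from aged mice. They were chosen by name as genes of B cells and plasma cells, with earlier results of these data known. Their symbols were matched to the Ensembl identifiers of the expression table through the GENCODE M21 annotation, which found all 9 among 21853 genes. The table held 14 libraries, an ovary and a uterus from each of 3 control (OC) and 4 treated (OT) mice. All were female C57BL/6J mice aged 28 weeks. The OT group was injected into the tail vein, 6 times at intervals of 4 days and with 1 µL per g, with medium in which mesenchymal stem cells of human amniotic membrane from several donors had been grown (AMSC-CM), and the OC group was injected with saline. Mice of both groups had been given gonadotropins before that, PMSG and then hCG 48 h later, at 10 IU each. The value of each gene was its FPKM, the number of sequenced fragments per kilobase of transcript after scaling to the mapped fragments of the library.

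B cells carry an antigen receptor made of a membrane immunoglobulin and a signalling pair, CD79A and CD79B. On activation some B cells become plasma cells, which lose most surface markers of B cells, enlarge the endoplasmic reticulum and secrete antibody. The joining chain links IgA and IgM into the polymers that epithelia carry into mucosal secretions, including those of the uterus, and the mouse ovary and uterus normally hold few B cells beside many macrophages.

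The libraries were checked against defining genes of each organ. Amh, Zp3 and Cyp19a1, made in ovarian follicles, were between 1.72 and 25.3 FPKM in every ovary and at most 0.869 FPKM in any uterus. Hoxa10, a patterning gene of the uterus, was between 138 and 236 FPKM in the uteruses, but also between 0.572 and 53.4 FPKM in the ovaries. One mouse stood apart in the genes described here, OT2, and it did so in both of its organs. It was singled out after its values were seen, and the comparisons of the members between OT and OC are given with and without it. The code OT2 names 1 ovary and 1 uterus, which are taken here as organs of the same mouse. None of the 12 constant-region genes of immunoglobulins that were looked for was among the genes analysed, so antibody RNA itself was not analysed here.

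The coding sequence of the motif shared by the receptor pair is shown because these 2 genes were read as separate transcripts of one complex. CD79A and CD79B each hold an immunoreceptor tyrosine-based activation motif, in which 2 tyrosines are phosphorylated when antigen is bound. The 45 bases below run from the first of these tyrosine codons to the third residue after the second, both tyrosine codons being in capitals, and were read from the GENCODE M21 transcripts.
Cd79a: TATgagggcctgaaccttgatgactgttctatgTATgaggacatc
Cd79b: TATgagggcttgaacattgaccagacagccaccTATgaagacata
The 2 stretches were identical at 31 of 45 bases and at 10 of the 15 residues they encode. Cd79a lies at chr7:24897381-24902197 on the plus strand of GRCm38 and Cd79b at chr11:106311341-106314762 on the minus strand.

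Sequence upstream of 3 members that were high in OT2 is shown because the 3 genes were high together in that mouse. RefSeq promoter windows of 300 bases (GRCm38.p6) were found for 6 members, and the parts below end before the first annotated transcript base.
Cd79a, chr7:24897247-24897380, plus strand: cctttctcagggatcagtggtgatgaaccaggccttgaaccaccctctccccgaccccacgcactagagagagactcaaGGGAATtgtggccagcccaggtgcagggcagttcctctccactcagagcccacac
Pou2af1, chr9:51213440-51213689, plus strand: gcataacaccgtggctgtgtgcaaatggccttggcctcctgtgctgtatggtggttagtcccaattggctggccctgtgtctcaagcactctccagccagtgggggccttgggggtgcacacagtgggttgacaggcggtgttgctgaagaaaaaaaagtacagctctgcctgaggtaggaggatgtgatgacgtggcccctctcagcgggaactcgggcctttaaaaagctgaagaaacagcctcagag
Jchain, chr5:88527898-88528147, minus strand: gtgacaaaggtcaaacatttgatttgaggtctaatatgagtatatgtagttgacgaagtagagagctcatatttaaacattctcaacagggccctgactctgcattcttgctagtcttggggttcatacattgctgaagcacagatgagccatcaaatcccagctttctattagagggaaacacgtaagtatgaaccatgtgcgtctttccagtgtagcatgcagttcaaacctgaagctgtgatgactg
The capitals mark GGGAAT, the core bases of sites bound by the B cell factor EBF1, which was searched on both strands and occurred in 1 of the 6 windows, that of Cd79a, and in 13.1% of all 32851 RefSeq windows of that length. The octamer ATGCAAAT, bound by the Oct proteins to which the POU2AF1 protein attaches, occurred in 0 of the 6 windows and in 1.74% of all windows, counting both strands. These counts describe the letters in these windows and nothing more.

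Cd79a and Cd79b encode the signalling pair of the antigen receptor. In the ovary, Cd79a was at 0.203, 0.415 and 0.488 FPKM in OC1 to OC3 and at 0.291, 3.86, 0.618 and 0.426 FPKM in OT1 to OT4. In the uterus it was at 0.283, 0.336 and 0.243 FPKM in the OC mice and at 0.479, 4.36, 0.834 and 0.752 FPKM in the OT mice. The groups overlapped in the ovary, where OT2 was the one library above 0.618 FPKM, and did not overlap in the uterus. Cd79b was at 0.708, 0.841 and 1.48 FPKM in the OC ovaries and at 2.16, 6.66, 1.00 and 1.97 FPKM in the OT ovaries. Cd79b in the uterus was at 0.966, 1.27 and 0.688 FPKM in OC and at 2.51, 9.28, 1.76 and 2.24 FPKM in OT. The pattern was that of Cd79a, with an overlap in the ovary through OT3 and none in the uterus, and OT2 was 3.09 and 3.70 times the next library in the 2 organs.

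Ms4a1 encodes CD20, a surface protein of B cells that plasma cells lack. It was at 0.292, 0.183 and 0.468 FPKM in the OC ovaries and at 0.270, 3.88, 0.337 and 0.0894 FPKM in the OT ovaries. In the uterus, Ms4a1 was at 0.0432 and 0.112 FPKM in OC1 and OC3, was listed at 0 in OC2, and was at 0.422, 5.99, 0.430 and 0.547 FPKM in OT1 to OT4. Each OT uterus was thus above each OC uterus, at very low values, whereas the ovaries of the 2 groups other than that of OT2 overlapped. Cd22 encodes an inhibitory co-receptor of the B cell receptor that binds sialic acid. Its ovary values were 1.05, 0.744 and 0.805 FPKM in OC and 1.90, 3.37, 1.26 and 1.90 FPKM in OT, so every OT ovary was above every OC ovary. Its uterus values were 0.915, 0.574 and 0.560 FPKM in OC and 0.484, 2.39, 0.462 and 0.522 FPKM in OT, and here the OT uteruses other than that of OT2 were all below those of OC. Cd22 was the one member whose OT values were all above OC in the ovary, and in the uterus its groups overlapped. Ms4a1 and Cd22 each overlap a gene on the opposite strand, and the libraries kept strand.

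Pou2af1 encodes OCA-B, a coactivator needed for germinal centres and kept on in plasma cells. It was at 0.284, 0.444 and 0.591 FPKM in the OC ovaries and at 0.572, 9.72, 0.181 and 0.355 FPKM in the OT ovaries. In the uterus it was at 0.266, 0.0754 and 0.169 FPKM in OC and at 1.38, 12.5, 0.549 and 1.16 FPKM in OT. The OT2 ovary was 16.5 times the next ovary, the largest such ratio among the 9 members, while the remaining ovaries overlapped. In the uterus each OT library was above each OC library.

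Jchain encodes the joining chain of IgA and IgM polymers. It had the highest mean level of the members in both organs, with 6.30, 12.8 and 8.34 FPKM in the OC ovaries and 13.6, 79.3, 7.26 and 14.9 FPKM in the OT ovaries. Its uterus levels were 5.44, 7.77 and 5.44 FPKM in OC and 36.5, 66.6, 12.3 and 10.5 FPKM in OT. The OT uteruses lay above the OC uteruses, and here OT1 was high as well as OT2, which was only 1.82 times the next library. Mzb1 encodes an endoplasmic reticulum co-chaperone that helps antibody assembly. Mzb1 was at 1.14, 1.15 and 2.17 FPKM in the OC ovaries and at 1.08, 11.3, 0.911 and 2.03 FPKM in the OT ovaries. Mzb1 was at 0.498, 1.42 and 1.16 FPKM in the OC uteruses and at 1.08, 16.1, 1.23 and 1.25 FPKM in the OT uteruses. Apart from OT2, which was 5.18 times the next ovary and 11.4 times the next uterus, OC and OT overlapped in both organs. Mzb1 overlaps another protein-coding gene, Spata24, on the same strand, and the counting could split reads between them.

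Derl3 encodes a protein of the endoplasmic reticulum membrane that takes part in the degradation of misfolded proteins. It was at 11.6, 9.65 and 10.0 FPKM in the OC ovaries and at 6.62, 9.01, 3.78 and 9.35 FPKM in the OT ovaries. Each OT ovary was below each OC ovary, and OT2 did not stand apart. In the uterus Derl3 was at 0.395, 1.53 and 0.667 FPKM in OC and at 0.983, 3.07, 0.485 and 1.18 FPKM in OT, with OT2 highest and the groups overlapping. Tnfrsf17 encodes BCMA, the receptor through which plasma cells receive the survival signals APRIL and BAFF. It was listed at 0 in the OC1 ovary, was at 0.388 and 0.184 FPKM in the OC2 and OC3 ovaries and was at 0.368, 0.660, 0.456 and 0.594 FPKM in OT1 to OT4. In the uterus Tnfrsf17 was at 0.345 and 0.216 FPKM in OC1 and OC3, was listed at 0 in OC2, and was at 0.928, 1.54, 0.214 and 0.368 FPKM in OT1 to OT4. The groups overlapped in both organs, and at these levels the count of reads behind a value is unknown.

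**Figure D1:**
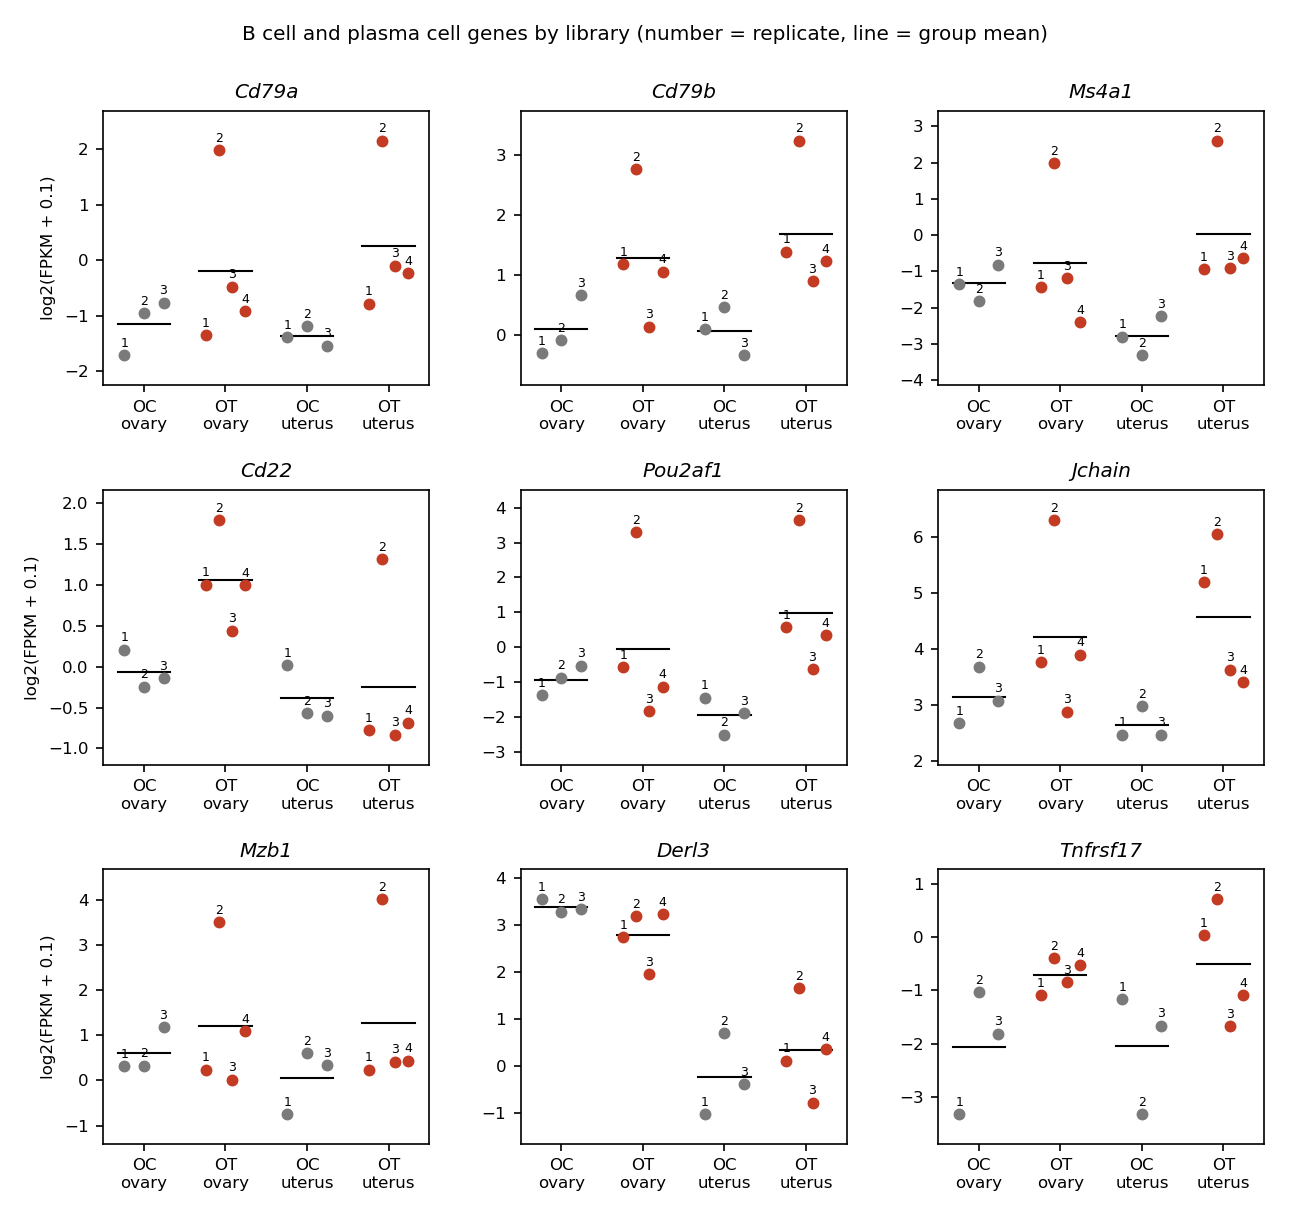
Each panel plots 1 gene, with log2(FPKM + 0.1) on the vertical axis and the 4 groups on the horizontal axis, grey points being OC, red points OT, numbers the mouse within its group and black lines the group means. Point 2 of OT lies above the rest for most genes in both organs, and the OT uteruses lie above the OC uteruses for Cd79a, Cd79b, Ms4a1, Pou2af1 and Jchain.

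OT2 had the highest of the 7 values for 8 of the 9 members in the ovary, Derl3 being the exception, and for 9 of 9 in the uterus. Among all genes that reached a mean of 0.5 FPKM in the organ, OT2 was highest for 16.0% of ovary genes and 12.7% of uterus genes. The ratio of OT2 to the median of the 6 other mice, on the scale of FPKM + 0.1, had a median over the tested members of 2.91 (ovary) and 2.85 (uterus) on the log2 scale, where all genes tested had -0.01 and 0.01. Cd79a and Ms4a1 in both organs, Pou2af1 in the ovary and Tnfrsf17 in the uterus were tested only through their OT2 value. The ovary median leaves out Tnfrsf17, for which OT2 was 1.74 times the median of the other ovaries on the FPKM scale. The members thus ranged from no excess in OT2, for Derl3 in the ovary, to 30.6 times the median of the other uteruses on the FPKM scale for Pou2af1.

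OT2 was the highest mouse in both organs, by any margin, for 3.38% of the 13653 genes tested in both and for 7 of the 8 members among them. Few genes had a large margin in both organs. Of 13653 genes tested in both, OT2 was highest and at least 2-fold above the next mouse in both organs for 12, or 0.0879%, and 5 of these were members, Cd79a, Cd79b, Ms4a1, Mzb1 and Pou2af1. Cd79a, Ms4a1 and, in the ovary, Pou2af1 were among the genes tested only through their OT2 value. With no filter on low values, the same margin was met by 19 of the 17078 genes with a value above 0 in both organs, or 0.111%, and by the same number of members, 5. Among the other 7 of the 12 were Spib, Tnfrsf13c, H2-DMb2, Cfb, Slpi and Hpca. Spib encodes a transcription factor of B cells and plasmacytoid dendritic cells, and Tnfrsf13c the BAFF receptor of B cells. At a 3-fold margin 6 genes, or 0.0439%, remained, among them Cd79a, Ms4a1, Mzb1, Pou2af1 and Spib. OT1 was the highest with a 2-fold margin in both organs for 10 genes, among them Fos and Fosb, OT4 for 2 and each of the other mice for 0, and no member was among those genes. These counts describe the 7 mice and carry no test.

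**Figure D2:**
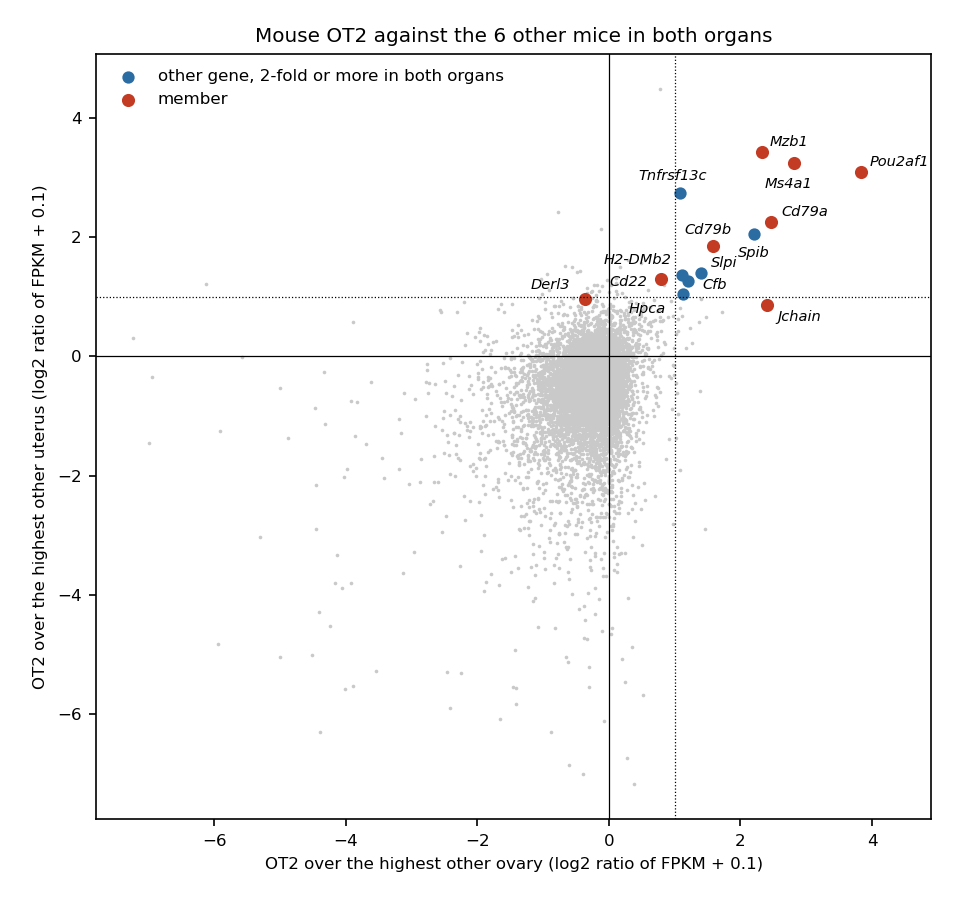
Each point is 1 gene of those tested in both organs, and the axes give the log2 ratio of OT2 to the highest of the 6 other mice in the ovary (horizontal) and in the uterus (vertical), on FPKM + 0.1, with solid lines at equality and dotted lines at a 2-fold excess. Members are red, other genes with at least a 2-fold excess in both organs are blue (6 shown, 1 left out), and 5 members lie with them in the upper right.

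OT was compared with OC in the ovary by limma on log2(FPKM + 0.1), and a gene was called at the study's cutoffs, a 2-fold change and an unadjusted p of at most 0.05. Of the 9 members, 8 had a mean of at least 0.5 FPKM, and 3 of these, Cd79a, Ms4a1 and Pou2af1, reached it only through OT2. Cd22 was called, with a log2 fold change of 1.12 ± 0.33 (SE) and an unadjusted p of 0.0082, and its Benjamini-Hochberg adjusted p by limma was 0.997. That is 1 of 8 members, against 0.451% of the 14415 genes tested called in either direction and 0.368% called higher. At a Benjamini-Hochberg adjusted p under 0.05, limma called 0 of the 14415 genes, and 650 had an unadjusted p under 0.05. Of the other members, Cd79b had a log2 fold change of 1.19 ± 0.56 and Jchain of 1.07 ± 0.69, neither past the cutoffs. The values were 0.96 ± 0.76 for Cd79a, 0.87 ± 1.09 for Pou2af1, 0.61 ± 0.76 for Mzb1, 0.57 ± 0.95 for Ms4a1 and -0.61 ± 0.29 for Derl3.

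Without OT2, and with no filter so that all 9 members were fitted, 0 of the 9 were called in the ovary by limma, against 0.745% of all genes, and Cd22 alone had an unadjusted p under 0.05 (0.0152). The log2 fold change of Cd22 was then 0.87 ± 0.27. Ms4a1, Pou2af1 and Mzb1 turned to -0.35 ± 0.43, -0.25 ± 0.41 and -0.16 ± 0.39. The median log2 fold change over the members was 0.23, against -0.01 over all genes fitted. Cd22 was also the one member whose OT ovaries were all above the OC ovaries, which held for 2.78% of genes tested, and Derl3 the one whose OT ovaries were all below, which held for 3.13%.

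In the uterus all 9 members had a mean of at least 0.5 FPKM, and Cd79a, Ms4a1 and Tnfrsf17 reached it only through OT2. The call at the same cutoffs was met by 5 of 9, all higher in OT, against 2.9% of the 14151 genes tested called in either direction and 2.23% called higher. Because the members were chosen with earlier results of these data known, these shares are a description and not an independent test. The log2 fold changes were 2.94 ± 0.94 for Pou2af1, 2.82 ± 0.96 for Ms4a1, 1.94 ± 0.61 for Jchain, 1.64 ± 0.70 for Cd79a and 1.62 ± 0.55 for Cd79b. Their unadjusted p ranged from 0.0133 for Jchain to 0.0479 for Cd79a, and their Benjamini-Hochberg adjusted p by limma from 0.55 to 0.599. At an adjusted p under 0.05, limma called 0 of the 14151 genes, and 1160 had an unadjusted p under 0.05. Tnfrsf17 (1.55 ± 0.81), Mzb1 (1.21 ± 0.92), Derl3 (0.57 ± 0.64) and Cd22 (0.14 ± 0.60) did not pass the cutoffs. Cd79a was close to the limit, and it lost the call when any one of OC1, OC2, OC3, OT3 or OT4 was left out, with unadjusted p of up to 0.107. Ms4a1 lost it without OC2 and Cd79b without OC3. With a pseudocount of 1 in place of 0.1, the call was kept by 2 of the 5, Jchain and Cd79b.

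The same 5 members were called in the uterus without OT2 when all 9 were fitted with no filter, against 3.64% of all genes. Without OT2 the log2 fold changes were 2.05 ± 0.45 for Pou2af1, 1.96 ± 0.35 for Ms4a1, 1.44 ± 0.48 for Jchain, 1.10 ± 0.31 for Cd79b and 1.00 ± 0.30 for Cd79a. Their unadjusted p ran from 0.0011 for Ms4a1 to 0.0235 for Jchain, and the lowest Benjamini-Hochberg adjusted p by limma was 0.325. Ms4a1 and Cd79a averaged only 0.259 and 0.488 FPKM over the uteruses other than that of OT2, below the filter. With the filter kept, 3 of the 6 members that still passed it were called, Cd79b, Jchain and Pou2af1, against 3.39% of genes. All OT uteruses were above all OC uteruses for these 5 members, a separation found in 6.46% of the genes tested. Setting OT2 aside could not undo it, because OT2 was the highest uterus for each of the 5. For these 5 members the uterine fold change was thus smaller without OT2, and the call was kept when no filter was applied. In these whole-organ libraries a larger number of B lineage cells and more RNA per cell cannot be told apart.

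**Figure D3:**
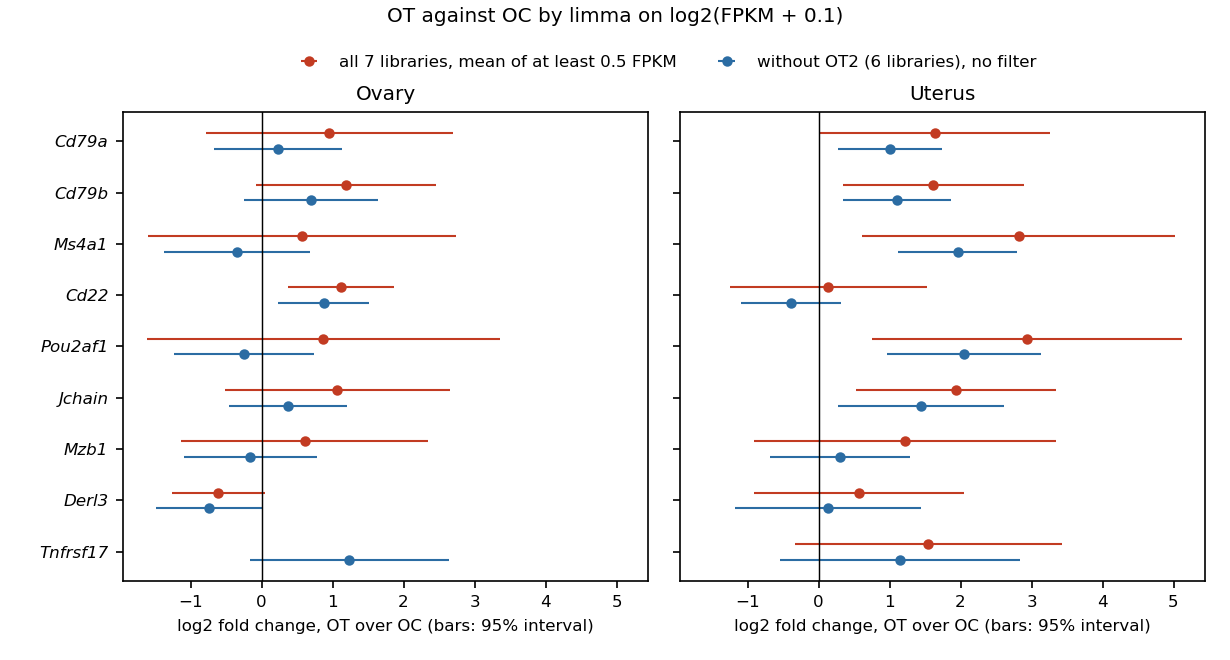
Points give the log2 fold change of OT over OC for each member and bars its 95% interval, in the ovary (left) and uterus (right), red for all 7 libraries with the filter on low values and blue for 6 libraries without OT2 and with no filter. Without OT2 the intervals of Cd79a, Cd79b, Ms4a1, Pou2af1 and Jchain stay above 0 in the uterus, and in the ovary that of Cd22 does.

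Whether the OT effect differed between the organs was tested on all 14 libraries. With the 4 group means alone, limma called 0 of 8 members, against 1.83% of 14557 genes, and the lowest unadjusted p among members was 0.129, that of Derl3. The ovary and uterus of a mouse are not independent, and with the mouse as a block 3 of 8 members were called, against 2.42% of genes, all with OT minus OC higher in the uterus than in the ovary. These were Ms4a1 with a difference of 2.25 ± 0.57 on the log2 scale, Pou2af1 with 2.07 ± 0.54 and Derl3 with 1.18 ± 0.51, at Benjamini-Hochberg adjusted p by limma of 0.764, 0.764 and 0.806. With the mouse as a random block limma called 0 of 8, at unadjusted p of 0.112 for Ms4a1, 0.112 for Derl3 and 0.184 for Pou2af1. Without OT2 and with no filter, limma without the block called 3 of 9, Ms4a1 (2.31 ± 0.56), Pou2af1 (2.30 ± 0.62) and Cd22 (-1.26 ± 0.38), against 3.16% of genes. In that fit the OT effect on Cd22 was the larger in the ovary, at a Benjamini-Hochberg adjusted p of 0.658 by limma. With all mice Cd22 was not called, at -0.98 ± 0.68 with the group means alone and -0.98 ± 0.43 with the mouse as a fixed block.

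The members were then compared between the organs. At a Benjamini-Hochberg adjusted p under 0.05 and a 2-fold change, limma called 1 of 8 members, Derl3, against 19.6% of the 14557 genes. Derl3 was lower in the uterus by a log2 difference of -3.03 ± 0.36, with 7 of 7 ovaries above all 7 uteruses and an adjusted p of 1.28e-05 by limma. Cd22 was next, at -0.81 ± 0.34 and an adjusted p of 0.0607 by limma. The other 6 members had differences between -0.33 for Ms4a1 and 0.19 for Cd79b, each smaller than its standard error. This fit did not pair the organs of a mouse. With the mouse as a fixed block Cd22 had an adjusted p of 0.0118 by limma, still short of a 2-fold change. Ms4a1 (-0.33 ± 0.28) and Mzb1 (-0.24 ± 0.22) then exceeded their standard errors. The order of mean levels was Jchain, Derl3, Mzb1, Cd79b, Pou2af1, Cd22, Cd79a, Ms4a1 and Tnfrsf17 in the ovary, and without OT2 it was Jchain, Derl3, Mzb1, Cd79b, Cd22, Cd79a, Pou2af1, Tnfrsf17 and Ms4a1. Neighbours overlapped in their ranges throughout the first order, and in the second except for Derl3 with Mzb1 and Cd22 with Cd79a.

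Vpreb3, a B lineage gene that lies 47.1 kb from Derl3 with 4 protein-coding genes between them, had a like difference between organs. It was at 8.09, 4.42 and 5.59 FPKM in the OC ovaries and at 8.18, 9.15, 2.49 and 7.31 FPKM in the OT ovaries. In the uteruses Vpreb3 was at 2.78 FPKM in OT3 and at 0.672 FPKM or less in the others, and was listed at 0 in 3 of them. The difference between uterus and ovary was -4.30 ± 0.64 on the log2 scale, at a Benjamini-Hochberg adjusted p of 8.89e-05 by limma. The lowest ovary value was 3.78 FPKM for Derl3 and 2.49 FPKM for Vpreb3, whereas Cd79a was at most at 0.618 FPKM and Ms4a1 at most at 0.468 FPKM in every ovary but that of OT2. Vpreb3 was singled out after its values were seen.

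The values of the 2 organs of a mouse were set side by side. Over the 7 mice, Pearson's r of log2(FPKM + 0.1) between ovary and uterus was 0.92 for Cd79a, 0.91 for Mzb1, 0.87 for Cd79b, 0.82 for Jchain, 0.80 for Pou2af1 and 0.75 for Ms4a1. It was 0.59 for Cd22, 0.22 for Derl3 and 0.19 for Tnfrsf17. Over the 6 mice without OT2 it ranged from -0.36 for Cd22 to 0.54 for Cd79b, with 0.46 for Cd79a, 0.19 for Mzb1 and 0.52 for Jchain. OC and OT mice are pooled, and the values are given as a description with no test.

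Other genes of the B lineage were described from lists. Of 24 other B cell genes, 16 were tested in the ovary and 1 was called, Cd37, a tetraspanin, with a log2 fold change of 1.12 ± 0.43, and 17 were tested in the uterus and 1 was called, Tnfrsf13c, with 2.64 ± 1.03. Without OT2 Cd37 lost its call, and Tnfrsf13c, which then fell below the filter, was called with no filter. OT2 was highest for 11 of the 16 and for 11 of the 17. Some of these were tested only through their OT2 value, since without OT2 the filter was passed by 13 in the ovary and 13 in the uterus. Pax5, the factor that holds B cell identity, was at 0.887 and 1.91 FPKM in OT2 and at most at 0.368 FPKM elsewhere. Ebf1, which stromal and fat cells also express, was at 5.59 FPKM in the OT2 ovary and 15.8 FPKM in the OT2 uterus, within the range of the other mice.

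Plasma cell genes outside the members were described in the same way. Of 24 such genes, most of them chaperones and secretory factors that many cells use, limma called 0 of 24 in the ovary, where 4 had an unadjusted p under 0.05, and 1 of 23 in the uterus at the study's cutoffs. The one called was Irf4, a transcription factor of plasma cell formation, at 1.18, 1.13 and 1.22 FPKM in the OC uteruses and at 9.28, 6.12, 2.06 and 1.45 FPKM in the OT uteruses. Irf4 had a log2 fold change of 1.55 ± 0.60, with OT1 rather than OT2 the highest, as for no member, and lost its call without OT2. The log2 fold change was above 0 for 5 of the 24 in the ovary, with a median of -0.12, and for 12 of the 23 in the uterus, with a median of 0.08. Xbp1, the factor that expands the secretory pathway, was between 101 and 182 FPKM in all 14 libraries.

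Of the 4 genes of the BAFF and APRIL system, ligands and receptors that keep B cells and plasma cells alive, 0 were called in the ovary by limma, where 1 had an unadjusted p under 0.05, and 1 in the uterus, Tnfrsf13c. In OT2 the receptor gene Tnfrsf13b was at 3.31 FPKM in the ovary and 4.65 FPKM in the uterus, above the other mice, while the ligand gene Tnfsf13b was at 1.94 and 5.74 FPKM and was not the highest ovary. Of 16 genes of B cell homing and lymphoid stroma, 10 were tested in the ovary with Ltb called (1.36 ± 0.47 on the log2 scale), and 9 in the uterus with Cxcl13 called (2.83 ± 0.75). Cxcl13, the chemokine that draws B cells into follicles, was at 0.131, 0.164 and 0.504 FPKM in the OC uteruses and at 3.29, 5.59, 2.40 and 0.546 FPKM in the OT uteruses, without overlap. Without OT2 the call of Cxcl13 was kept and that of Ltb lost. Glycam1, a mucin of the high endothelial venules of lymph nodes, was at 4.22 FPKM in the OT2 ovary and 0.218 FPKM in the OC2 ovary and was listed at 0 in the other 12 libraries, the OT2 uterus among them. Pigr, which carries polymers joined by the J chain across epithelia, was not called in either organ, and its uterus values were 17.3, 36.7 and 40.6 FPKM in OC and 1.63, 19.6, 21.2 and 32.2 FPKM in OT.

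Markers of other cells were measured beside the members. The summed FPKM of the 9 members was 21.6 to 26.6 in the OC ovaries and 15.8 to 31.6 in the OT ovaries other than that of OT2, which had 128. In the uterus the sum was 9.15 to 13.0 in OC and 18.3 to 122 in OT, OT2 being the highest and OT1 next at 44.8. Jchain and Derl3 made up most of the ovary sums. For Cd79a, Cd79b, Ms4a1, Cd22 and Pou2af1 alone, the sum was 2.54 to 3.83 FPKM in the OC ovaries. It was 3.39 to 5.19 FPKM in the OT ovaries other than that of OT2, which had 27.5 FPKM. In the uterus it was 1.77 to 2.47 FPKM in OC and 4.03 to 34.5 FPKM in OT. For 14 T cell genes the sum in the OT2 ovary was 22.8 FPKM, 1.75 times the next ovary, and in the OT2 uterus it was below that of the OC2 uterus, the highest at 24.9 FPKM. OT2 was highest for 8 of the 9 T cell genes tested in the ovary and for 6 of the 11 tested in the uterus. Some of these were tested only through their OT2 value, since without OT2 the filter was passed by 8 in the ovary and 7 in the uterus. By limma 0 T cell genes were called in either organ at the study's cutoffs, of 9 and 11 tested, and 0 had an unadjusted p under 0.05. Without OT2 and with no filter, 3 of 14 were called lower in the OT ovary, Cd27, Cd3d and Cd8b1, against 0.745% of all genes called in either direction. Cd8b1 and Cd27 were low, at most at 0.112 and 0.650 FPKM in the ovaries other than that of OT2. Cd3d was at 0.185, 2.34 and 1.33 FPKM in the OC ovaries. It was at 0.0865 and 0.110 FPKM in the OT1 and OT3 ovaries and was listed at 0 in that of OT4. Without OT2 and with the filter kept, 1 of 8 T cell genes was called in the ovary, Cd3d, lower in OT, against 51 of 14416 genes. Cd3e, a defining T cell gene, was at most at 1.01 FPKM in any library. Of 7 genes of all leukocytes 0 were called in either organ by limma, although 5 of them had an unadjusted p under 0.05 in the ovary, the largest log2 fold change being 0.85 ± 0.25 for Cd52, and 0 did in the uterus. OT2 was highest for 6 of these 7 genes in each organ, and their sum in OT2 was 1.23 times the next ovary and 1.44 times the next uterus.

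Macrophage and fat markers also differed among these mice. The summed FPKM of 9 macrophage genes was 374 to 433 in the OC uteruses and 435 to 1399 in the OT uteruses, OT2 being the highest, with Cd163 alone called (1.39 ± 0.48 on the log2 scale), a call lost without OT2. OT2 was highest for 8 of the 9 in the uterus, where 3 had an unadjusted p under 0.05, and 1 without OT2. In the ovary the sum was 309 to 413 FPKM in OC and 403 to 591 FPKM in OT, all 9 log2 fold changes were above 0, and limma called 0 of 9 at the study's cutoffs, with 5 at an unadjusted p under 0.05 and 4 without OT2. Of 10 adipocyte genes, 4 were called higher in the ovary and 10 of 10 in the uterus, and without OT2 these counts were 2, Fabp4 and Lep, and 10. Adipoq, a defining gene of fat cells, was at 8.40 to 28.6 FPKM in the OC uteruses and 117 to 777 FPKM in the OT uteruses. The sum of the 10 was 110 to 304 FPKM in the OC uteruses and 1321 to 12023 FPKM in the OT uteruses, and OT1 rather than OT2 was the highest, OT2 being at 1345 FPKM. In the ovaries it was 244 to 362 FPKM in OC, 1918 FPKM in OT1, 1426 FPKM in OT2, and 291 and 483 FPKM in OT3 and OT4. Of 8 genes of stratified epithelium 7 were called higher in the OT uterus, with a sum of 2.72 to 13.1 FPKM in OC and 44.9 to 779 FPKM in OT, OT2 being the lowest of the OT mice. The fat markers, and those of stratified epithelium other than Dsg3, separated the OC from the OT uteruses as Cd79a, Cd79b, Ms4a1, Pou2af1 and Jchain did. Their part in those results was not tested. Dsg3 overlapped, at 1.55 FPKM in the OC2 uterus against 0.222 FPKM in that of OT1. Trp63 separated the groups only narrowly, at 0.774 FPKM in the OC2 uterus against 0.776 FPKM in that of OT2. Of 6 red blood cell genes 0 were called in either organ by limma and 0 had an unadjusted p under 0.05, and OT2 was the highest for 0 of the 5 tested. Without OT2, 3 of the 5 had an unadjusted p under 0.05 in the uterus, and Hba-a1 and Hba-a2, which encode haemoglobin chains, were called higher in OT.

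**Figure D4:**
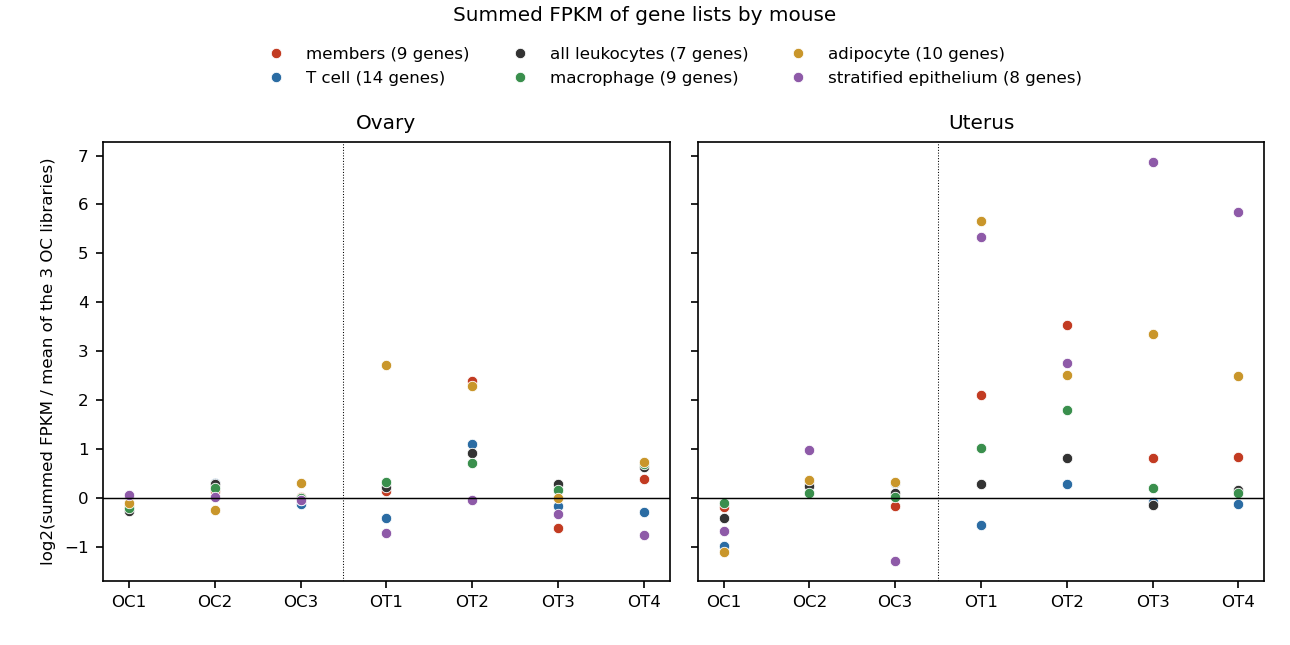
For each mouse (horizontal axis) the points give the log2 ratio of the summed FPKM of a gene list to its mean in the 3 OC libraries, in the ovary (left) and the uterus (right). The members are highest in OT2 in both organs, as are the lists of all leukocytes and of macrophages. The T cell list is highest in OT2 in the ovary only. The adipocyte list is highest in OT1 and the stratified epithelium list of the uterus in OT3.

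The genes with the most similar pattern were sought among 14549 genes by Pearson's r of log2(FPKM + 0.1) over the 14 libraries, each organ centred on its mean. For the mean of Cd79a, Cd79b, Ms4a1 and Cd22 the 5 highest included H2-DMa (0.93), Spib (0.93), Tnfrsf13b (0.89) and H2-D1 (0.89). H2-DMa helps load peptides on class II molecules and H2-D1 is a class I molecule. For the mean of Jchain, Mzb1, Derl3, Tnfrsf17 and Pou2af1 they were Spib (0.96), Pld4 (0.94), Slc11a1 (0.93), C3 (0.93) and Tnfrsf13b (0.92). In the 12 libraries without OT2 these values were 0.19 to 0.61 for the first 5 genes and 0.61 to 0.85 for the second 5. Slc11a1, a metal transporter of phagocytes, kept the highest value, at 16.8 FPKM in the OT2 ovary against 8.39 to 11.2 FPKM in the other ovaries, and at 11.1 FPKM in the OT2 uterus against 3.41 to 8.41 FPKM in the other uteruses. The libraries of a mouse share its organs and handling, and these correlations carry no test.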

How the data were processed

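The libraries, 1 ovary and 1 uterus for each of 3 OC and 4 OT mice, were stranded and made from RNA depleted of rRNA. The authors trimmed the reads, mapped them to mm10 with STAR 2.5 and quantified genes with Cufflinks 2.2.1, and the deposited values are FPKM per gene. Because FPKM is scaled to the mapped fragments, library depth is unknown, and whole reads could not be recovered. Cuffdiff, which the study used, needs the reads and was not run here.

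All 21853 identifiers matched GENCODE M21. Genes averaging 0.5 FPKM or more over the libraries used were fitted on log2(FPKM + 0.1) with limma (version 3.58.1, lmFit and eBayes with a trend, under R version 4.3.3), by organ and over both organs, and a fold change on this scale understates the change of low genes. Adjusted p are Benjamini-Hochberg over all genes fitted. An effect ± value is the SE from limma, with n = 3 OC and n = 4 OT mice where all mice were used. Without OT2 it rests on n = 3 OC and n = 3 OT mice. Fits over both organs used 14 libraries, or 12 without OT2. The step was tested on simulated data. Other steps used Python 3.11.15 with numpy 2.4.6 and pandas 2.3.3, and figures matplotlib 3.10.9. The members and the gene lists were chosen with earlier results of these data known. All members are named. The plan was to name from each list up to 4 called genes with the largest change in the uterus, or the 2 most abundant where none was called. Not all of these are named. A list of plasmacytoid dendritic cell genes was not described above. In it limma called 0 of 9 in the ovary and 1 of 7 in the uterus, Ly6d, higher in OT, against 2.23% of all genes called higher there. The ranking of libraries by OT2, the EBF1 letters, the fit without OT2 and without a filter, and any other gene named were chosen after values were seen. Replicate numbers of OC and OT name different mice, so the block by number served as an alternative. The ovary and uterus of 1 code were paired as 1 mouse, and their deviations from the group means correlated at 0.0904 to 0.265. For libraries of the same organ from OC and OT mice that share only a number, this correlation was -0.0163 to 0.338. The correlations therefore do not single out the pairing by mouse. Other pseudocounts, filters, scalings, robust eBayes, blocks and leaving out each mouse were tried. The values of 1 other gene are not reported here.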

Additional observations from a re-analysis of the deposited data

Results flagged for a closer look

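In 11 of 18 sets of 4 OT libraries, formed by the 9 members in 2 organs, 1 library lay far from the other 3, and in all 11 it was that of OT2. The gap of OT2 to the nearest OT library, as a share of the whole range of the 4, was above Dixon's 95% critical value for 4 samples, which chance passes in about 1 set in 20 when the values of a set are independent draws from 1 normal distribution. The 18 sets come from the same 4 mice and are not independent. Over all genes tested, some OT library passed this value for 5.08% of ovary genes and for 9.55% of uterus genes, and OT2 passed it as the highest library for 0.888% and 0.947%. In the ovary this share was 0.909 for Cd79a, 0.935 for Ms4a1, 0.959 for Pou2af1, 0.895 for Jchain and 0.892 for Mzb1. In the uterus it was 0.909 for Cd79a, 0.900 for Cd79b, 0.977 for Ms4a1, 0.969 for Cd22, 0.930 for Pou2af1 and 0.989 for Mzb1. Groups of 3 OC libraries were not examined this way.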

How the results depend on the processing

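Counts of members called depended on the settings. In the ovary, where 1 was called, there were 2 with no filter (Cd22 and Tnfrsf17), 0 with a pseudocount of 1, 2 under a replicate block, fitted without OT4 since no OC mouse has its number, and 0 without OT2 and with no filter. Leaving out 1 mouse gave 0 to 3, with 3 (Cd22, Cd79b and Jchain) without OT3 and 0 without OT2. In the uterus 5 became 2 with a pseudocount of 1 and 3 to 5 when 1 mouse was left out, and it was 5 under the block. For the difference between organs, 0 became 1 with a pseudocount of 0.01, 3 with the mouse as a fixed block against 0 with the mouse as a random block, 3 without OT2 and with no filter, and 0 to 2 when 1 mouse was left out, with 2 without OT2. Derl3 was the one member that differed between organs under every alternative. Log2 values that changed sign were all from uncalled results. For OT against OC without OT2 and with no filter they were -0.38 for Cd22 in the uterus, and -0.35 for Ms4a1, -0.16 for Mzb1 and -0.25 for Pou2af1 in the ovary, and for uterus against ovary 0.026 for Jchain. Pou2af1 between organs was at -0.10 with a pseudocount of 0.01 and Ms4a1 at 0.0022 with a pseudocount of 1. With 1 mouse left out, the ranges were -0.38 to 0.34 for Cd22 in the uterus, -0.16 to 1.00 for Mzb1 in the ovary, and -0.068 to 0.71 for the difference of Cd79b. Between organs they were -0.028 to 0.25 for Cd79a, -0.25 to 0.066 for Jchain and -0.23 to 0.16 for Pou2af1. Over all genes the calls in the ovary went from 65 to 18 with a pseudocount of 1, 159 with no filter, 42 with a mean of at least 1 FPKM, 137 without OT3 and 103 under the block, and those in the uterus from 410 to 259 with a pseudocount of 1 and 666 under the block. The cause of these changes was not tested. The depth is unknown, so values under about 0.5 FPKM may rest on very few reads.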
